A study of Mus musculus with 59 samples.

Results

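Collagen genes were picked by name: every row of the 2 deposited expression tables that carries a symbol of the form Col, number, a, number, as in Col1a1, and that reached a value of 1 in 2 or more libraries of its table. The spinal cord table held 42 such rows among 36814 entries, and 15 of them reached that level. The culture table held 42 among 27389 entries, and 33 reached it. Together this gave 34 genes, of which 14 were counted in both tables, 19 in the cultures only and 1, Col25a1, in the spinal cord only. Close to the limit in the spinal cord were Col4a5, which reached 1 in 2 libraries and was kept, and Col1a1 and Col3a1, which reached it in 1 library each and were left out. In the cultures Col19a1 was kept with 2 libraries and Col9a1 left out with 1. The other culture rows left out were Col4a3, Col4a4, Col10a1, Col13a1, Col17a1, Col24a1, Col25a1 and Col28a1.

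The series holds RNA sequencing of 59 mouse libraries from wild-type (WT) mice or cells and from SOD1_G93A mutants, which carry the superoxide dismutase 1 change used to model amyotrophic lateral sclerosis. Spinal cord was taken from both genotypes at 4, 8, 12 and 17 weeks of age, with 1 female and 1 male library for each genotype and age (16 libraries). The other 43 libraries come from sandwich cultures, in which glia and neurons, each WT or SOD1_G93A mutant, were kept together in all 4 pairings for 3, 7 or 14 days. RNA was read from the glia (23 libraries) or from the neurons (20 libraries) of a pairing, with 1 or 2 libraries for each pairing, day and cell type read. The labels do not give the mouse strain, the origin of the cultured cells or whether replicates are separate cultures, so the p-values speak only of the spread among these libraries, and that spread may be technical. Reads on genes, with M for the prefix mega, came to 9.71 M to 49.1 M per spinal cord library, 3.53 M to 20.04 M per glial library and 5.92 M to 27.9 M per neuronal library. The summed level of 8 neuron markers was 57.9 to 237 RPKM (reads per gene length and library size, rescaled between libraries) in the glial libraries and 590.0 to 5960 in the neuronal ones. For 8 astrocyte markers the sums were 492 to 1141 in glia and 27.0 to 450.5 in neurons. All values below are rescaled in this way unless said to be as deposited, and log2 differences are on the scale log2(value + 1), which understates changes of low genes.

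Collagens are triple helices of 3 alpha chains, and each chain has a gene of its own. Fibrillar collagens such as types I, III and V build the cables of connective tissue, and the fibril-associated collagens with interrupted triple helices (FACIT) such as types IX, XII and XVI bind to their surface. Type IV forms the sheet of basement membranes around vessels and at the surface of the brain and spinal cord, type VI forms beaded filaments, type VIII is a short-chain network collagen, and types XXIII and XXV span the cell membrane. In the healthy central nervous system, fibrillar collagen is largely held by the meninges and the walls of vessels, where fibroblasts and mural cells make it, while basement membrane collagen is also made by endothelial cells and astrocytes.

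Type IV genes lie in head-to-head pairs, and their start regions are shown because the paired genes are compared with each other below. The windows span 250 bases before to 50 bases after the annotated start (RefSeq, GRCm38.p6; the deposited files use mm9, so no position was carried between them). Each is read 5′ to 3′ on the strand of its gene, with matches to 3 motifs in capitals. These are the CCAAT box, the GC box, spelled GGGCGG, and the TATA motif, spelled TATAAA, each searched on both strands, so that a match may also be the reverse complement. Col4a1 (minus strand, chr8:11312777-11313076) and Col4a2 (plus strand, chr8:11312555-11312854) start 21 bases apart and share 78 bases of the windows. Col4a5 (plus strand, chrX:141475169-141475468) and Col4a6 (minus strand, chrX:141474027-141474326) run away from each other from starts 1343 bases apart. Col5a3 (minus strand, chr9:20815018-20815317) is shown as the gene called at both late ages of the spinal cord, and Col1a2 (plus strand, chr6:4505368-4505667) as the fibrillar gene that rose most in neuronal libraries.
Col4a1: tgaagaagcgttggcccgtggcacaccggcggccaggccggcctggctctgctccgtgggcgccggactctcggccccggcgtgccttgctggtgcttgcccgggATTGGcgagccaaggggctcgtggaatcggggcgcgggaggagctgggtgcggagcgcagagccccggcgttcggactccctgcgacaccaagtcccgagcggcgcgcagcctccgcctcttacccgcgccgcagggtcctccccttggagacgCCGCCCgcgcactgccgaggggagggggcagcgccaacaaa
Col4a2: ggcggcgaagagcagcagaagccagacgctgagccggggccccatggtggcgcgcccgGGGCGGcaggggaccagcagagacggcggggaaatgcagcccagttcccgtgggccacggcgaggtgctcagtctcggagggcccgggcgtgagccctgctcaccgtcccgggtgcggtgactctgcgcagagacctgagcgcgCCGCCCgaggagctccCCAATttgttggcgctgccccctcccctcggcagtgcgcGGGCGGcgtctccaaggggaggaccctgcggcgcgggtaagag
Col4a5: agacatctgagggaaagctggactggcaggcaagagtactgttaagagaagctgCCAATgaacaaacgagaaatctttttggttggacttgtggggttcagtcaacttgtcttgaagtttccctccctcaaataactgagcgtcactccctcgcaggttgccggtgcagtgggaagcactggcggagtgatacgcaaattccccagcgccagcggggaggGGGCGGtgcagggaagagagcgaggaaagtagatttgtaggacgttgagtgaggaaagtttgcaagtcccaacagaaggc
Col4a6: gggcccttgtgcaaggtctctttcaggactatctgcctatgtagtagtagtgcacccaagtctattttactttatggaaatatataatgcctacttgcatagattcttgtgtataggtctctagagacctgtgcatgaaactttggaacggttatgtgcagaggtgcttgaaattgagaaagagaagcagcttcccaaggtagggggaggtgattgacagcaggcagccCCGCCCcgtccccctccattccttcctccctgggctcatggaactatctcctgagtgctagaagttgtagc
Col5a3: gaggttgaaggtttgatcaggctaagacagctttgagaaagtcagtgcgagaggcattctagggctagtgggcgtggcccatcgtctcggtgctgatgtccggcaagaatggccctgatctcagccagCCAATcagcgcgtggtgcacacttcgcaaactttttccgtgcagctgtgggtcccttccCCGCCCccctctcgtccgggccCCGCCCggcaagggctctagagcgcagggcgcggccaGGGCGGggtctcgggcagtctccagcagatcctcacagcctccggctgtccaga
Col1a2: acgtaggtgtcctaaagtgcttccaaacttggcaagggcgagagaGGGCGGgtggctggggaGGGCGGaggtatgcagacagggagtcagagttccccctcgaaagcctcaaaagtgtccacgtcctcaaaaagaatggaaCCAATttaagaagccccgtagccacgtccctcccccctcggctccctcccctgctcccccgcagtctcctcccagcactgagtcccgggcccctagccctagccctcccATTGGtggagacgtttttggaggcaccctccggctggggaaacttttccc
CCAAT occurred once in the windows of Col4a1, Col4a2, Col4a5 and Col5a3 and 2 times in that of Col1a2. GGGCGG occurred once in Col4a1, Col4a5 and Col4a6, 2 times in Col1a2 and 3 times in Col4a2 and Col5a3, and TATAAA in none of the 6. Windows were found for 26 of the 34 genes (28 windows). GGGCGG was present in 21 of the 28 and in 35.7% of 32851 mouse promoters of this length, CCAAT in 10 of 28 and 37.4%, and TATAAA in 2 of 28 and 13.6%. These are matches of letters and say nothing of binding.

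Collagen RNA was scarce in spinal cord. The 6 genes with the highest median deposited value there were Col11a2 (5.25), Col23a1 (4.24), Col25a1 (2.90), Col9a3 (2.42), Col4a2 (2.25) and Col16a1 (1.52), on a scale close to RPKM. Col23a1 and Col25a1 encode membrane-spanning collagens. Col1a1 and Col3a1, the main chains of fibrous connective tissue, had deposited medians of 0.616 and 0.338 and highest values of 1.48 and 1.12.

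Values in the culture table were higher, with medians over all 43 libraries of 130.7 RPKM as deposited for Col4a1, 81.4 for Col4a2, 68.6 for Col1a1, 60.9 for Col3a1, 55.7 for Col6a1 and 50.2 for Col12a1. None of these 6 except Col4a2 was among the 6 highest of the spinal cord. The cord and culture tables were scaled separately, so the levels are set side by side without a test. In glial libraries the fibrillar class held a median of 53.8% of the summed collagen level at day 3, 42.7% at day 7 and 43.6% at day 14. The type IV class held 22.6%, 31.0% and 34.9%. In neuronal libraries the fibrillar medians were 31.4%, 38.4% and 31.2%, and those of the FACIT class 13.0%, 13.6% and 19.5%. The culture entry of Col22a1 covers 0.130 of the gene length used for the spinal cord, relative to the median entry, so its level is that of a part of the gene.

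**Figure D1:**
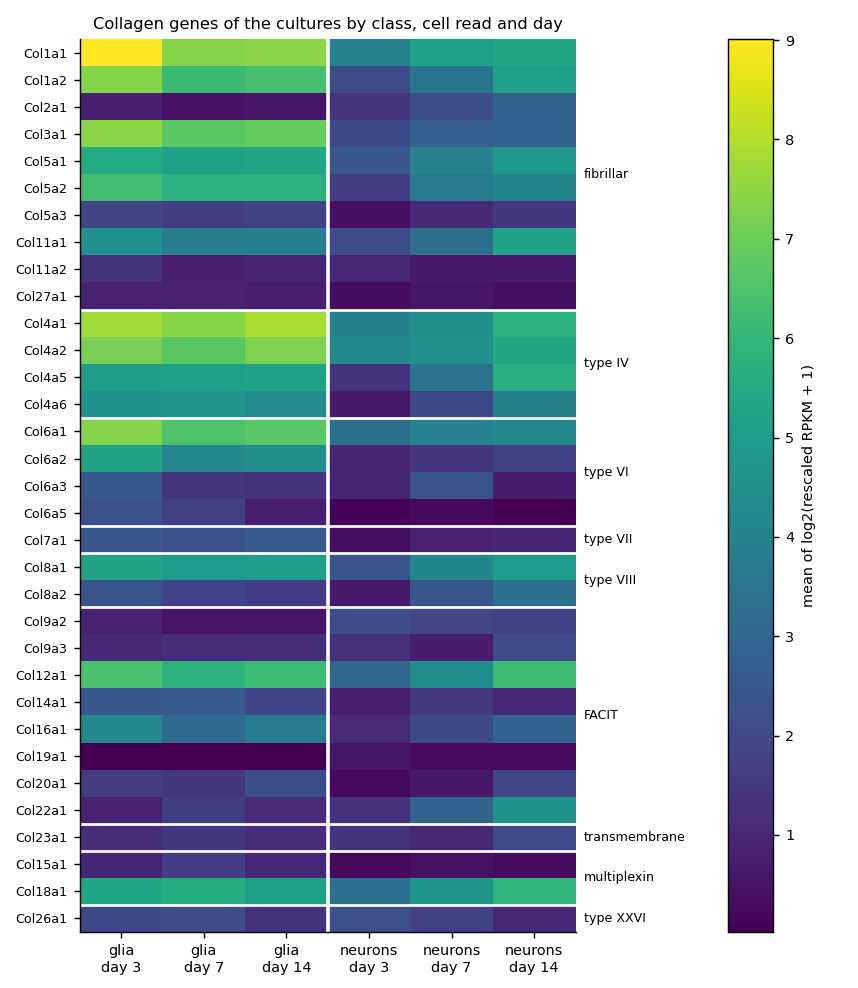
Mean log2(rescaled RPKM + 1) of the 33 collagen genes of the cultures (rows, grouped by class) in glial and neuronal libraries at days 3, 7 and 14 (columns; 6 to 8 libraries each, color scale at right). Glial columns are high for Col1a1, Col1a2, Col3a1, Col4a1, Col4a2 and Col6a1 at every day, and neuronal columns brighten from day 3 to day 14 for Col4a5, Col4a6, Col11a1, Col12a1 and Col22a1.

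In spinal cord, 4 collagen genes were higher in SOD1_G93A mutants than in WT at 17 weeks, 1 at 12 weeks and none at 4 or 8 weeks. They come from 3 classes: Col5a3 (fibrillar), Col12a1 and Col9a3 (FACIT) and Col4a5 (type IV). The question was how collagen expression follows the disease, and each age was compared between genotypes with limma across 14645 entries (8 genotype-by-age means and sex, Benjamini-Hochberg adjusted p under 0.05).

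Col5a3 (mm9 chr9:20574494-20619512, minus strand) encodes the alpha3 chain of type V collagen, a minor fibrillar collagen. At 12 weeks its values were 0.279 in the WT female, 0.222 in the WT male, 1.01 in the mutant female and 1.32 in the mutant male. At 17 weeks they were 0.365, 0.509, 1.29 and 1.66 in the same order. Both mutants lay above both WT animals at each of these ages. At 4 and 8 weeks the 8 libraries lay between 0.201 and 0.409, with genotypes overlapping at 8 weeks. The mean was 4.65-fold higher in mutants at 12 weeks (log2 difference 0.79, SE 0.14, adjusted p = 0.011 in limma) and 3.38-fold higher at 17 weeks (0.78, SE 0.14, adjusted p = 0.0035). The change of the mutant effect between 4 and 17 weeks was 0.82 (SE 0.19, adjusted p = 0.033), against calls in 5.03% of all entries (4.65% higher), and no other collagen gene passed that test. Reads behind the 17-week values were 76, 161, 119 and 526. Col5a3 reached the level of 1 as deposited only in mutant libraries of 12 and 17 weeks, and so did Col4a5. Both had to differ to be counted, so their p-values and the number of genes called are a description. The call at 12 weeks was lost without the 12-week mutant male (adjusted p = 0.0533), the WT female (0.0741) or the WT male (0.107). The call of the interaction was lost in 10 of the 16 fits that left out 1 library (lowest log2 value 0.72), and with values as deposited (0.336).

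Col12a1 (mm9 chr9:79446798-79566639, minus strand), which encodes a FACIT chain that binds type I fibrils, had the largest difference at 17 weeks. Its values were 0.571 and 0.941 in the WT female and male and 2.79 and 2.07 in the mutant female and male, a 3.22-fold difference in means (log2 0.97, SE 0.16, adjusted p = 0.0032 in limma). The groups did not overlap. At 12 weeks it was 0.757 and 0.895 in WT and 1.33 and 1.09 in mutants (log2 0.28, adjusted p = 0.471), which did not pass. Mutants also lay above WT at 4 weeks, with 1.07 and 1.83 against 0.885 and 0.993, and at 8 weeks, with 0.998 and 1.12 against 0.562 and 0.744, and neither difference passed.

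Col9a3 (mm9 chr2:180332495-180356895, plus strand) encodes a chain of type IX collagen, known from cartilage. At 17 weeks it was 1.76 and 1.77 in WT and 3.15 and 3.01 in mutants (1.75-fold, log2 0.56, SE 0.13, adjusted p = 0.0174). In WT it was lower at 17 than at 4 weeks, where it was 2.80 and 3.49 (log2 -0.58, adjusted p = 0.0409). It was the only collagen gene called with age in WT, among 2.87% of all entries (2.31% lower), and 12 of the 16 fits without 1 library lost that call. The mutants at 17 weeks lay within the range of all genotypes at 4 weeks, 2.80 to 4.24.

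Col4a5 (mm9 chrX:137909928-138123779, plus strand), whose chain belongs to the basement membranes of kidney and other epithelia and of smooth muscle, was 0.647 and 0.805 in WT and 1.25 and 1.42 in mutants at 17 weeks (1.84-fold, log2 0.44, SE 0.11, adjusted p = 0.0286). The main type IV chains went the other way without passing. Col4a1 was 1.72 and 1.69 in WT and 1.02 and 1.45 in mutants (log2 -0.28, adjusted p = 0.188), and Col4a2 was 2.31 and 3.28 against 1.87 and 2.45 (log2 -0.26, adjusted p = 0.319). At 12 weeks the same was seen, with Col4a2 at 2.03 and 2.61 in WT and 1.41 and 1.30 in mutants (log2 -0.49, adjusted p = 0.137). The 12-week groups of Col4a2 did not overlap.

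The 4 genes called at 17 weeks were 4 of 15, where 11.7% of all entries were called and 8.76% were called higher. At 12 weeks 1 of 15 was called, and 3.08% of all entries, or 2.8% called higher. Over the 15 genes the median log2 difference at 17 weeks was 0.19, beside -0.02 over all entries, and 10 were positive and 5 negative. Of the rest at 17 weeks, Col16a1 stood at 2.96 in mutants and 1.69 in WT on average (log2 0.56, adjusted p = 0.0991), Col11a1 at 2.06 and 1.27, Col23a1 at 5.77 and 4.33, Col6a1 at 1.26 and 0.978, Col6a2 at 0.468 and 0.365, and Col1a2 at 1.57 and 1.39. Col11a2 (3.96 and 4.73), Col25a1 (2.27 and 2.82) and Col9a2 (1.02 and 1.13) were lower on average in mutants, and none of these passed. The count at 17 weeks fell to 1 with values as deposited (Col12a1) and to 1 without the 17-week females (Col5a3), whose libraries were scaled by 0.651 (mutant) and 0.726 (WT) where the other 14 lay at 0.94 to 1.12. Without the mutant female of 17 weeks alone it was 2, with adjusted p = 0.0833 for Col4a5 and 0.144 for Col9a3. Without the WT female Col4a5 was lost (0.109), and without the WT male Col9a3 (0.0907).

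At 8 weeks no collagen gene was called, with 0.0888% of all entries called, and at 4 weeks none, with 0% called and 705 entries at an unadjusted p under 0.05 in limma. At 8 weeks 13 of the 15 differences were positive (median log2 0.31, beside -0.0025 for all entries). Of the 15 genes 4 had an unadjusted p under 0.05 in limma, as did 2224 of all 14645 entries. Col6a1, which encodes a chain of type VI filaments, was 0.669 and 0.638 in WT and 1.40 and 1.64 in mutants at that age (log2 0.61, SE 0.13, adjusted p = 0.113). Its groups did not overlap. Col6a1 reached 1 as deposited in only 3 libraries, among them both mutants of this age. It was counted largely through the group where it is high, so its difference is a description. The fibroblast markers summed to 18.3 and 13.2 in WT and 17.2 and 25.0 in mutants at this age. The endothelial sums were 24.5 and 22.9 against 22.05 and 29.9, and the mural sums 15.3 and 16.2 against 18.9 and 17.7. Other lists also lay apart (mutants against WT). Astrocyte markers gave 1436 to 1512 against 1521 to 1572, and microglia markers 76.0 to 79.7 against 70.1 to 74.1. Neuron markers gave 1497 to 1550 against 1576 to 1583, and motor neuron markers 33.0 to 36.2 against 47.0 to 48.6. Oligodendrocyte markers gave 4216 to 4693 against 4722 to 5406, and cartilage markers 7.42 to 7.95 against 10.0 to 10.7. Pluripotent cell markers gave 3.72 to 5.21 against 3.03 to 3.62. Their part in the collagen values was not tested.

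**Figure D2:**
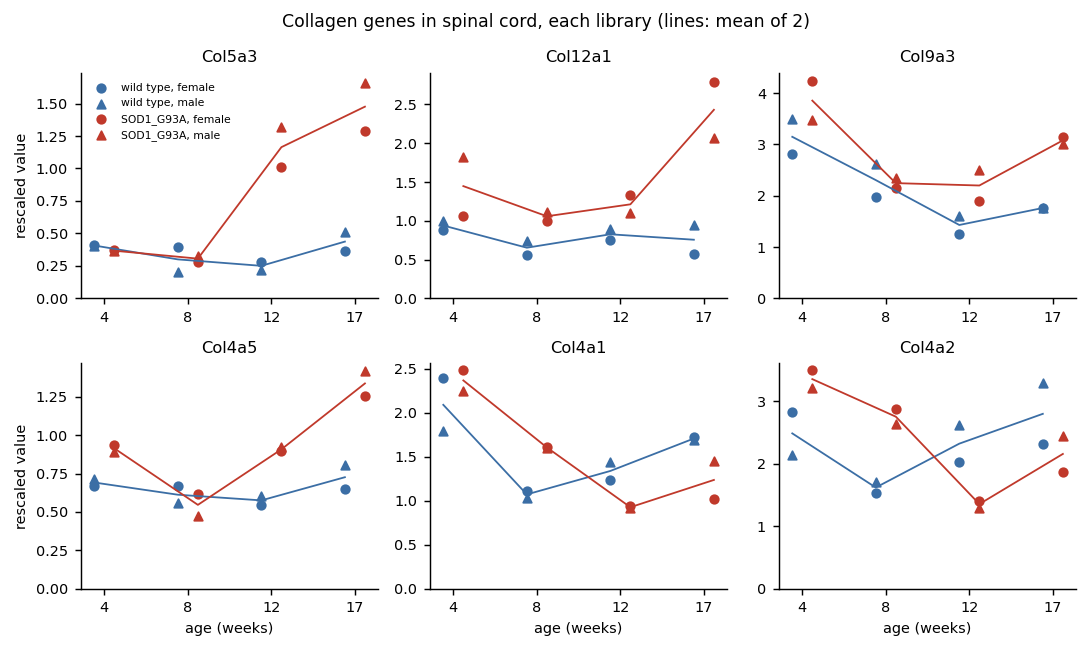
Rescaled value (vertical axis, RPKM-like scale) against age in weeks for 6 collagen genes in spinal cord, with 1 female (circle) and 1 male (triangle) library per genotype and age and lines through the means of 2. Col5a3 was called at 12 and 17 weeks and Col12a1, Col9a3 and Col4a5 at 17 weeks, with Col12a1 of the mutants above WT at every age, while Col4a1 and Col4a2 of the mutants lie below WT at 12 weeks.

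Marker genes of several cell types moved with genotype at the same ages. At 12 weeks the astrocyte markers summed to 1946 to 1991 in mutants and 1186 to 1320 in WT, the microglia markers to 144 to 173 against 71.7 to 72.1, and the endothelial markers to 18.7 to 26.3 against 27.9 to 34.6. At 17 weeks the summed level of 8 microglia markers was 310.5 and 343 in mutants against 60.9 and 67.9 in WT, and that of 8 astrocyte markers 2632 and 2823 against 1314 and 1350.0. The 8 neuron markers summed to 993 and 1007 against 1401 and 1407. For 10 fibroblast markers the sums were 35.1 and 36.1 against 11.6 and 18.5, of which Igfbp2 alone made up 29.5 and 28.8 against 8.02 and 7.18, whereas the fibroblast transporter Slc6a13 stood at 0.280 and 0.170 against 0.315 and 0.245. Mural markers summed to 28.6 and 30.7 against 16.3 and 23.5, and endothelial markers to 33.2 and 37.1 against 34.9 and 36.7. At 17 weeks the oligodendrocyte markers summed to 2899 to 3042 in mutants against 3468 to 3692, the motor neuron markers to 22.5 to 23.02 against 31.5 to 41.3, and the primitive endoderm markers to 14.7 to 15.3 against 8.46 to 8.85. At 12 weeks the neuron markers summed to 1371 to 1445 against 1631 to 1858, the cartilage markers to 7.73 to 8.55 against 10.2 to 10.9, the mural markers to 16.1 to 19.8 against 20.8 to 22.04, and the primitive endoderm markers to 10.7 to 12.6 against 8.26 to 9.18. In bulk RNA fewer cells of a type and less RNA per cell cannot be told apart, and the part of these shifts in the collagen values was not tested.

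Genes that make, bind and remodel collagen were counted against the same background, 11.7% of all entries called at 17 weeks (8.76% higher) and 3.08% at 12 weeks. At 17 weeks, 9 of 17 tested genes of collagen modification and folding were higher in mutants and none lower, among them P4ha3, a prolyl hydroxylase subunit (11.7 against 4.53), the folding factor Fkbp10 (3.46 against 1.17) and P3h2 (2.62 against 1.15). Of 7 processing and crosslinking genes 3 were higher, the lysyl oxidase genes Loxl2 (log2 1.08) and Loxl3 (0.52) and the procollagen protease Bmp1 (0.67), and Adamts2, which trims the amino end of procollagen, was lower (-0.40). Of 10 receptors found, only Lair1, Ddr1 and Itgb1 reached 1 in 2 cord libraries and were tested. All 3 were higher, by log2 0.94, 0.66 and 0.53. A list gene can reach that level through the mutants alone, so the shares in these lists describe the genes that the filter left. These lists hold genes that other cell functions use too, and their genes were chosen with earlier results of these data known.

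Of the degradation list 2 of 7 were higher and 1 lower. The protease inhibitor Timp1 stood at 19.0 and 13.1 in mutants against 1.10 and 0.0485 in WT, and Timp3 at 19.2 against 14.0 on average, while the collagen-cleaving cathepsin Ctsk was lower (0.855 against 2.36). Of 7 fibril-binding proteoglycans and regulators 5 were higher, with fibromodulin, Fmod, at 20.3 and 20.5 against 2.60 and 1.82, Fn1 at 11.5 against 1.91 and Prelp at 20.1 against 9.86. Partners of type IV in basement membranes split, with the laminin chain Lamb2 higher (log2 0.82) and nidogen, Nid1, lower (-0.59) among 7 tested. In the TGF-beta list, a pathway known to induce collagen, 6 of 10 were higher, among them Tgfb1 (log2 1.60) and Tgfbr2 (1.30). At 12 weeks, 10 genes of these 7 lists were called, all higher, with Timp1 at 2.28 and Fmod at 1.79 as the 2 largest log2 differences.

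No collagen gene was called between glial genotypes when averaged over the 3 days. Mutant glia were compared with WT glia beside WT neurons and beside mutant neurons, and mutant with WT neuron partners, to see whether the genotype of a cell or that of its partner moves its genes (limma, 14611 entries). None of 32 tested collagen genes was called in either comparison of glial genotype, where 0.0274% and 0.0137% of all entries were called and 300 and 246 had an unadjusted p under 0.05. In both it was Col26a1 among the 32 that had an unadjusted p under 0.05 (log2 -0.43, SE 0.18 and -0.45, SE 0.19). For the genotype of the neuron partner, and for the interaction of both, 0 collagen genes and 0% of all entries were called (39, 26 and 17 entries at an unadjusted p under 0.05).

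The genes called in spinal cord had small and unclear differences in glia. Col12a1 differed by log2 0.19 beside WT neurons (95% interval -0.16 to 0.55), Col4a5 by -0.10 (-0.49 to 0.30), Col5a3 by -0.07 (-0.50 to 0.36) and Col9a3 by 0.05 (-0.28 to 0.38). Mean levels of Col12a1 were 75.6 in mutant and 66.1 in WT glia, and those of Col5a3 2.41 and 2.51.

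At day 7, Col15a1, a collagen of basement membrane zones, and Col26a1 were lower in all 4 mutant glial libraries than in all 4 WT ones. How many of all entries separated in this way was not counted. Replicate differences of the 2 partners correlated at 0.825 in mutant and 0.771 in WT glia, so 4 libraries are not 4 independent replicates. Col15a1 was 2.02 and 4.98 in WT glia beside WT neurons, 3.32 and 4.46 in WT glia beside mutant neurons, and 0.831, 1.29, 1.27 and 1.21 in mutant glia. For Col26a1 the same libraries gave 4.92, 6.74, 4.23 and 7.56 in WT and 1.69, 1.99, 1.99 and 2.14 in mutant glia. With day 7 alone and replicate number as a block, both were called beside WT neurons (Col15a1 log2 -1.05, adjusted p = 0.0392; Col26a1 -1.26, adjusted p = 0.0171; 0.979% of entries called) and beside mutant neurons (-1.12, adjusted p = 0.0223; -1.13, adjusted p = 0.0216; 1.83%). Without the block no collagen gene was called at day 7, and this alternative was added after the data were seen. At day 14 Col26a1 was 2.53, 0.889, 2.37 and 0.991 in WT and 1.62, 1.28, 1.45 and 1.43 in mutant glia, which overlapped. Marker sums of the day 7 glia also differed by genotype without overlap. The endothelial markers summed to 20.2 to 25.02 in the 4 mutant and 46.5 to 48.85 in the 4 WT libraries, with Cldn5 at or below 0.0821, the cartilage markers to 8.06 to 13.1 and 16.1 to 20.5, the primitive endoderm markers to 30.7 to 44.4 and 52.3 to 77.4, and the oligodendrocyte markers to 205.5 to 244 and 170.8 to 183.8. Their part in the values of Col15a1 and Col26a1 was not tested.

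At day 14 the replicates of glia disagreed. Col1a1, the main chain of type I collagen, was 426 and 451 in the 2 WT glial libraries numbered replicate 1 (beside WT and mutant neurons) and 32.5 and 27.1 in those numbered replicate 2. In mutant glia it was 274 and 310.4 in replicate 1 and 232 and 223 in replicate 2. Thus mutant glia lay below WT glia in replicate 1 and above them in replicate 2. The partner chain Col1a2 followed, with 155 and 177 in WT replicate 1, 13.5 and 11.7 in WT replicate 2, and 119 to 149 in the 4 mutant libraries. Col3a1, of type III, was 165 and 188 against 64.5 and 49.96 in WT, and 126 to 168 in mutants. Type VI did the same, Col6a1 being 193 and 183 against 54.1 and 59.5 in WT and 94.0 to 116 in mutants.

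A second set of genes set mutant replicate 2 apart. Col4a1 was 403 and 378 in those 2 libraries and 129 to 233 in the other 6, Col7a1, the anchoring fibril collagen, 12.5 and 12.5 against 2.67 to 4.34, and Col12a1 107 and 114 against 45.7 to 72.3. Counted over the 32 genes, 23 had opposite signs of the mutant difference in the 2 replicates beside both partners, and 19 of these were lower in mutants in replicate 1 and higher in replicate 2. For all 32 the largest difference between replicates of a group exceeded that between partners of the same glia and replicate, with medians of 1.03 and 0.25 on the log2 scale. On day 7, 22 of 29 genes at 1 or more were lower in mutants in replicate 1 and 26 of 30 in replicate 2 beside WT neurons, and 17 and 23 of 29 beside mutant neurons. None of these counts was made over all entries. Over all tested entries the day 14 replicate difference correlated between partners at 0.890 in mutant and 0.852 in WT glia. The counts therefore describe the libraries and are not a result about collagen genes in particular.

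**Figure D3:**
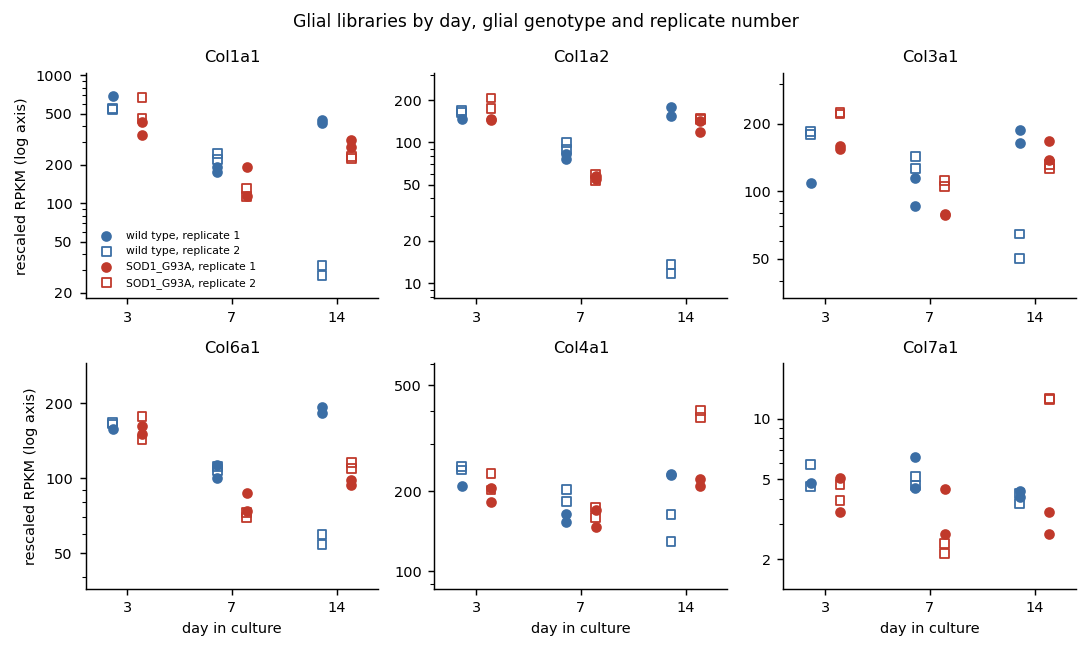
Rescaled RPKM (log axis) of 6 collagen genes in the 23 glial libraries by day, glial genotype (color) and replicate number (filled circle 1, open square 2), with both neuron partners shown by the same symbol. At day 14 the 2 WT libraries of replicate 2 lie lowest for Col1a1, Col1a2, Col3a1 and Col6a1, and the 2 mutant libraries of replicate 2 highest for Col4a1 and Col7a1.

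Other marker sums moved with these day 14 libraries. In WT glia the fibroblast list summed to 2475 and 2373 in replicate 1 and to 1713 and 1514 in replicate 2, and of its genes Mgp stood at 305 and 299 against 8.71 and 6.89 and Foxc1 at 39.0 and 32.4 against 10.7 and 10.9, while Slc22a6 was at or below 0.0914 in all 8 libraries. The mural list summed to 1426 and 1479 against 895 and 748, the endothelial list to 44.6 and 39.6 against 11.7 and 12.7 with Cldn5 at 0 in all 8, and the astrocyte list to 740 and 818 against 940.3 and 1141. In mutant glia of replicate 2 the crosslinking enzyme gene Lox stood at 610.3 and 577 against 164 and 170.3 in replicate 1, and P4ha1 at 407 and 391.5 against 129 and 122. The astrocyte list there summed to 492 and 573 against 849 and 976. The part of these shifts in the collagen values was not tested.

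From day 3 to day 14 no collagen gene rose in glia and 6 of 32 fell, where 12% of all entries were called and 8.21% were called lower. Col6a5, of a type VI chain, ran from 2.07 to 5.10 (median 4.14) in 7 libraries at day 3 and from 0.110 to 1.80 (median 0.703) in 8 at day 14, with no overlap (log2 -1.46, SE 0.24, adjusted p = 0.0012). Col11a1, of a minor fibrillar chain, ran from 18.4 to 29.9 at day 3 and from 10.7 to 16.6 at day 14 (log2 -0.68, adjusted p = 0.0030). The other 4 were Col16a1, a FACIT gene (log2 -0.58, adjusted p = 0.0041), Col26a1 (-0.69, 0.0144), Col6a3 (-1.17, 0.0419) and Col11a2 (-0.42, 0.0363). Col1a1 had the largest difference of all, log2 -1.58, and did not pass (adjusted p = 0.0763), with libraries from 342 to 694 at day 3 and from 27.1 to 451 at day 14. None of the 4 type IV genes was called (median log2 0.05). Glial libraries of one day and number deviated together and are not independent, so these SEs and p-values may be too small.

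The count of 6 depended on single libraries. It was 12 without WT glia beside mutant neurons of day 14, replicate 1, and 10 without WT glia beside WT neurons of that day and number. It was 4 without mutant glia beside mutant neurons of day 3, replicate 2, and 4 without mutant glia beside WT neurons of day 3, replicate 1 or replicate 2. Of the 22 fits without 1 library, Col6a3 lost its call in 15 (log2 -1.43 to -0.91) and Col11a2 in 9 (-0.51 to -0.32). With a pseudocount of 0.1 the count was 4. With values as deposited it was 13, and without the 7 libraries of day 3 replicate 1, whose factors were 1.46 to 2.23 where the other cultures lay at 0.81 to 0.98, it was 3 (Col6a5, Col11a1 and Col16a1). Among the collagen partners, Dcn (log2 -1.36), Ctsk (-1.29) and the collagen integrin gene Itga11 (-1.09) fell most. Of the 7 lists, 10 genes fell and 1, Smad2 (0.33), rose, where 8.21% of all entries were called lower. The number of list genes tested in glia is not given here, so the 10 are not set against that share. Over the same days the endothelial markers of the glial libraries went from 51.2 to 67.0 at day 3 to 11.7 to 44.6 at day 14, the microglia markers from 532 to 802 to 267 to 488 and the primitive endoderm markers from 79.1 to 96.9 to 38.4 to 69.9, each without overlap. The oligodendrocyte markers (median 409 and 181) and the fibroblast markers (2225 to 3871 and 1514 to 2619) overlapped between the days. The part of these shifts in the collagen values was not tested.

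Libraries read from neurons gained collagen RNA strongly with time. Of 30 tested genes 23 were higher at day 14 than at day 3 and 2 lower (limma over 15065 entries, mean over the 4 pairings). In this comparison 63% of all entries were called, 29.3% higher and 33.7% lower, so that a call as such was common. Col5a3, Col7a1 and Col20a1, at most 0.439, 0.425 and 0.328 at day 3, reached 1 as deposited in neuronal libraries only after day 3. They were counted through the days where they are high. Their calls, and their place in these counts and in those by class below, are therefore a description. The summed collagen level was 49.2 to 201 at day 3 (6 libraries), 159 to 475 at day 7 (7 libraries) and 462 to 676 at day 14 (7 libraries), and the median log2 change over the 30 genes was 1.31, beside -0.05 over all entries. Most same-numbered libraries of a day deviated together, so they are not independent. The SEs and p-values of this comparison may therefore be too small.

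Col4a5 and Col4a6, of the separated type IV pair, had the largest differences. Col4a5 ran from 0.532 to 2.46 (median 2.10) at day 3, from 3.92 to 20.1 (11.9) at day 7 and from 41.9 to 57.9 (54.1) at day 14. No 2 days overlapped. The difference was log2 4.26 (SE 0.29, adjusted p = 5.21e-07), the largest of any collagen gene. Its neighbour Col4a6, whose start region is printed beside it above, ran from 0.164 to 1.04 (0.748), from 1.32 to 6.35 (2.95) and from 13.5 to 16.8 (14.3) on the same days (log2 3.24, SE 0.27). The other pair rose less. Col4a1 was 3.27 to 37.0 at day 3 and 34.6 to 93.1 at day 14, which overlapped (log2 1.64, SE 0.56, adjusted p = 0.0243), and Col4a2 was 7.93 to 31.7 and 26.2 to 61.3 (log2 1.04, adjusted p = 0.0233).

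The fibrillar genes rose in 7 of 9 tested cases. Col1a2 went from 1.71 to 6.01 at day 3 to 21.9 to 51.1 at day 14 without overlap (log2 3.10, SE 0.35), and Col11a1 from 1.17 to 4.56 to 27.6 to 49.5 (log2 3.08, SE 0.33). Col5a1 and Col5a2, which encode chains of type V, rose by log2 2.24 and 2.33. Col1a1, though the partner of Col1a2, rose by log2 1.28 (adjusted p = 0.0306) from 4.14 to 38.0 at day 3 to 22.9 to 60.6 at day 14, and Col3a1, at 1.55 to 6.97 and 1.49 to 14.4, did not pass (log2 0.90, adjusted p = 0.145).

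Among FACIT genes 5 of 8 rose. Col12a1 ran from 1.76 to 11.9 at day 3, 7.98 to 48.5 at day 7 and 53.0 to 95.1 at day 14 (log2 3.03, SE 0.48), Col22a1 from 0.410 to 2.60, 2.45 to 11.5 and 9.48 to 63.6 (log2 3.20, SE 0.32), and Col16a1 by log2 1.68. Both type VIII genes rose by log2 2.53 to 2.54, Col8a1 from 2.42 to 7.47 to 22.6 to 37.3. Col18a1, the source of endostatin, rose by log2 2.38. The 2 genes that fell were Col26a1 (2.79 to 5.83 at day 3, 0.583 to 2.45 at day 14, log2 -1.22) and Col19a1 (log2 -0.27), while Col9a2, Col11a2, Col6a3 and Col14a1 did not pass. Col19a1 reached 1 as deposited in only 2 libraries, WT neurons of day 3, replicate 1, beside WT glia (1.27) and beside mutant glia (1.23). It was counted through the group where it is high, so its calls here and against glia are a description. Its call over days was lost in 10 of 16 fits without 1 library.

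The 2 libraries of day 3 numbered replicate 2, both beside mutant glia, lay low. Their summed collagen levels were 49.2 and 68.1 where the other 4 of day 3 were 155 to 201, Col12a1 was 3.05 and 1.76 against 10.0 to 11.9, and Col4a1 3.96 and 3.27 against 22.95 to 37.0. With values as deposited 15 genes were higher and 3 lower, and Col1a1, Col4a1, Col4a2, Col6a1, Col7a1, Col9a3, Col2a1 and Col23a1 no longer passed. Without mutant neurons beside mutant glia of day 14, replicate 2, Col4a1 was lost (adjusted p = 0.051). Col1a1 lost its call in 5 of 17 fits without 1 library (log2 1.03 to 1.53). These left out replicate 2 of mutant neurons beside mutant glia at day 14 or day 3, replicate 1 of WT neurons at day 14 beside either glia, or replicate 2 of WT neurons beside mutant glia at day 3. Col7a1 also lost its call in 5 of 17 (log2 0.45 to 0.83), without either replicate of mutant neurons beside mutant glia at day 3, replicate 2 of WT neurons beside mutant glia at day 14 or day 3, or replicate 1 of WT neurons beside WT glia at day 14.

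**Figure D4:**
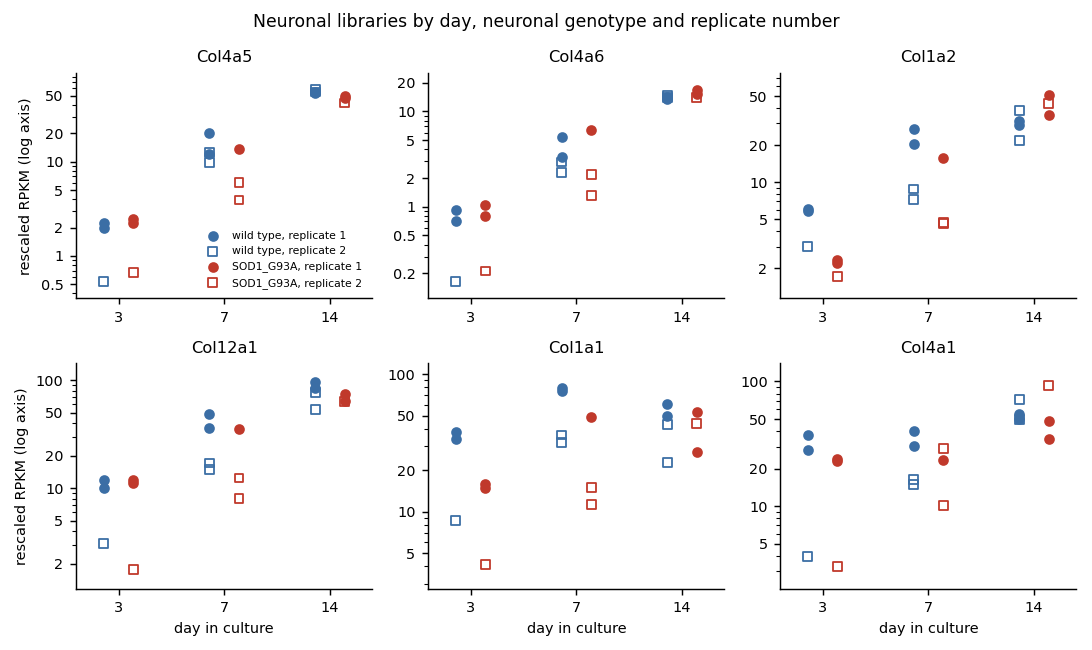
Rescaled RPKM (log axis) of 6 collagen genes in the 20 neuronal libraries by day, neuronal genotype (color) and replicate number (filled circle 1, open square 2), with both glial partners shown by the same symbol. Col4a5, Col4a6, Col1a2 and Col12a1 rise from day 3 to day 14 without overlap of these days, and the open squares of day 3 lie below the circles of the same genotype.

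The make-up of the neuronal libraries changed over the same days. The 8 neuron markers summed to 4834 to 5960 at day 3, 2314 to 5411 at day 7 and 590.0 to 1136 at day 14, and 8 motor neuron markers to 246 to 522, 154 to 317 and 30.3 to 58.0. Astrocyte markers summed to 27.0 to 105 at day 3 and 279 to 450.5 at day 14, and mural markers to 28.0 to 527 and 1482 to 2452, of which Tagln made up 15.8 to 268 and 878 to 1306 and Acta2 9.64 to 253 and 568 to 1164, while Abcc9 and Higd1b stayed at or below 0.188 at all 3 days. Fibroblast markers summed to 218 to 741 and 1119.9 to 1847, with Igfbp2 at 139 to 471 and 1063 to 1807 and Foxc1 at 0.323 to 1.94 and 1.76 to 3.06. Between day 3 and day 14 the endothelial markers went from 2.70 to 11.7 to 25.2 to 50.05, with Cldn5 at 0 in every library of day 14, the skeletal muscle markers from 2.99 to 13.3 to 22.99 to 33.0, the oligodendrocyte markers from 45.0 to 64.0 to 75.8 to 274, and the pluripotent cell markers from 7.55 to 170.0 to 0.553 to 6.65. The part of these shifts in the collagen values was not tested.

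Collagen partners were counted in the same comparison, where 63% of all entries were called and 29.3% higher. Of 18 genes of modification and folding 15 were higher at day 14 and none lower, led by Fkbp10 (log2 3.39), P4ha3 (2.74) and P4ha1 (2.30). The lysyl oxidase genes Loxl1 (3.40) and Lox (3.11) led 9 of 13 higher in processing and crosslinking, with 1 lower, and Itga1 (2.65), Ddr2 (2.62) and Ddr1 (1.78) led 7 of 8 receptors. All 7 tested proteoglycans and regulators rose, among them Prelp (4.62), the collagen-binding Sparc (3.99) and Ogn (3.55). Basement membrane partners rose in 9 of 12 cases and fell in 3, with Lama5 at 4.55, Lamb2 at 3.74 and perlecan, Hspg2, at 3.20. In the degradation list 4 of 8 rose, among them Mmp2 (2.90), and in the TGF-beta list 6 of 10 rose and 2 fell, among them Tgfbr2 (2.55) and Tgfbr1 (-1.81).

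No collagen gene was called between neuronal genotypes either, in the main comparison without a replicate block. With replicate number as a block, Col22a1, Col1a1 and Col5a1 were called lower in mutant neurons beside mutant glia and Col23a1 higher. The share of all entries called in that fit is given in the last section. Same-numbered neuronal libraries of a day correlated above 0.1 in 6 of 7 pairs. The absence of calls therefore holds only for the fit without the block. Mutant against WT neurons gave 0 of 30 beside WT glia and 0 of 30 beside mutant glia (0.0266% and 0.126% of all entries called; 1064 and 1480 at an unadjusted p under 0.05 in limma), and the genotype of the glial partner and the interaction also gave 0, with 0% of all entries (174, 99 and 107 at an unadjusted p under 0.05). Differences were negative in 23 and 24 of the 30, with median log2 values of -0.16 and -0.23, beside 0.009 and -0.01 over all entries. The share of negative differences over all entries was not counted. Most libraries of one day and number deviated together, so the 2 counts are not independent and are a description. With an unadjusted p under 0.05 in both comparisons, Col8a2 averaged 2.52 in mutant and 7.03 in WT neurons beside WT glia and 3.07 and 7.03 beside mutant glia, Col5a2 5.53 and 14.5, then 8.69 and 15.9, and Col23a1, in the other direction, 3.38 and 1.47, then 2.56 and 1.37. Mutant neurons beside WT glia have 1 library a day and were assumed to vary like the others.

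Between the cell types, 24 of 33 collagen genes were lower in neuronal than in glial libraries and 6 higher (limma over 43 libraries and 15867 entries, of which 78.4% were called, 38.6% lower and 39.9% higher). Col3a1 averaged 6.25 in neuronal and 137 in glial libraries (log2 -4.42, SE 0.24), Col6a2 1.71 and 26.7 (-3.28), Col1a1 34.4 and 317 (-3.10), Col1a2 17.7 and 117 (-3.04), Col6a1 14.5 and 122 (-2.97) and Col4a1 33.9 and 212 (-2.86). All 10 fibrillar genes but Col2a1 were lower in neurons, and all 4 of type IV. The 6 higher genes were Col22a1 (11.9 and 1.44, log2 1.68), Col2a1 (4.53 and 0.562, log2 1.46), Col9a2 (3.24 and 0.558, log2 1.40), Col19a1 (0.34, counted through the neuronal libraries where it is high), Col9a3 (0.27) and Col23a1 (0.25). Col2a1 and the type IX genes encode the collagens of cartilage, and Col2a1 is also known from the embryonic notochord and neural tissue. The last 2 changed sign with day 14 left out (-0.04 for Col9a3 and -0.07 for Col23a1). Col15a1, Col6a5 and Col27a1, all among the 24, reached 1 as deposited only in glial libraries (14, 18 and 5 of them). They were counted through the group where they are high. Their place in these counts, in the overlap counts and in the day interaction below is therefore a description.

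Whether glial and neuronal libraries overlapped was counted at each day, beside the same count over all 15867 entries. At day 3 all glial libraries lay above all neuronal ones for 25 of the 33 genes and below for 2, against 28.5% and 26.5% of all entries. At day 7 this held for 17 and 2, against 21.1% and 23.3%, and at day 14 for 8 and 6, against 9.18% and 12%, with 19 genes and 78.8% of entries overlapping. Fewer genes and fewer of all entries were thus free of overlap at day 14 than at day 3. The day effect differed between neurons and glia in 24 genes, 23 of them more positive in neurons, where 53.5% of all entries were called, 26.7% more positive and 26.8% more negative. Col4a5 at day 14 ran from 41.9 to 57.9 in neuronal and from 30.2 to 47.5 in glial libraries, and Col11a1 from 27.6 to 49.5 and from 10.7 to 16.6. Col3a1 stayed apart, with 1.49 to 14.4 in neuronal and 49.96 to 188 in glial libraries.

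Chains that assemble together were compared as a ratio of deposited values within each library, which does not depend on library scaling. Col1a1 to Col1a2, which form type I in a ratio of 2 chains to 1, stood at a median of 2.45 in glia (1.53 to 4.71), and in neuronal libraries at 6.0 at day 3, 3.16 at day 7 and 1.05 at day 14. The neuronal ratios of day 14 lay below those of days 3 and 7 in every library. In spinal cord it was 0.412 (0.215 to 0.696), where Col1a1 was not counted among the collagen genes. Col4a1 to Col4a2, of the pair with the shared start, held a median of 1.54 in glia with a range of 1.40 to 1.86, against 1.14 (0.412 to 1.52) in neuronal libraries and 0.638 (0.515 to 0.843) in cord. Col5a1 to Col5a2 was 0.696 in glia, 1.64 in neurons and 0.376 in cord, and Col6a1 to Col6a2 was 4.70, 8.73 and 1.49. The share of Col1a1, Col1a2 and Col3a1 together in the summed collagen level was 14.3% to 51.0% (median 36.1%) in glia and 8.18% to 26.6% (median 16.1%) in neurons. Ratios between the cord and the cultures rest on different gene lengths in the 2 tables, so only those within a table compare directly.

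**Figure D5:**
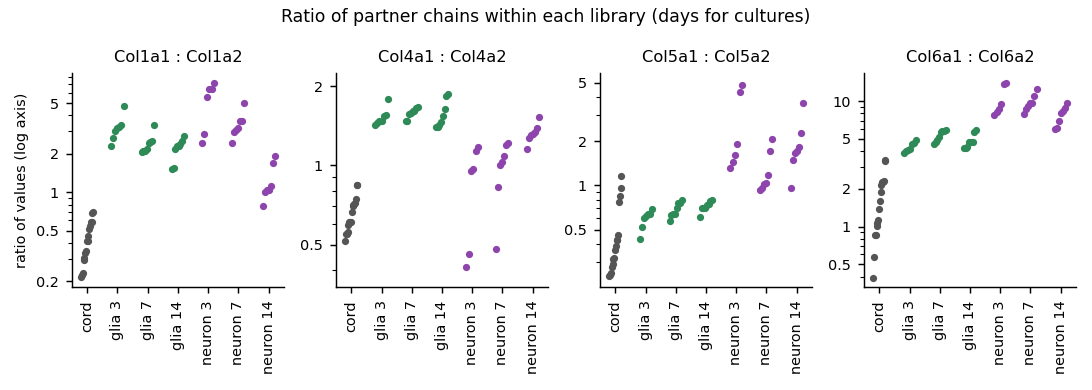
Ratio of the deposited values of 2 partner chains (log axes that differ between panels) in each library, 1 point per library, for spinal cord (gray), glia (green) and neurons (purple) at days 3, 7 and 14. Col1a1 to Col1a2 falls in neuronal libraries to a median of 1.05 at day 14, and Col4a1 to Col4a2 stays between 1.40 and 1.86 in all glial libraries.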

How the data were processed

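RNA was extracted with Trizol and RNeasy and made into Illumina or Nextera libraries, per the labels' protocols, with Bowtie and the mm9 build named in the submitters' processing notes. The culture values are RPKM as deposited. The spinal cord values, deposited by the authors, are another unit on a scale like RPKM: reads over gene length and library total, with whole reads subtracted for some genes, so that 898 entries fall below 0 in some library and were set to 0 (no collagen row among them). Of the culture entries, 127 hold no values. Low values came out as whole reads in 99.86% of those checked in the cultures (tolerance 0.03), which gave the depths.

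Values were divided by median-of-ratios factors computed within each table and tested as log2(value + 1) with limma 3.58.1 (R 4.3.3), trend on, keeping entries at 1 or more in 2 libraries, 2-sided, with Benjamini-Hochberg adjustment over all entries and calls under 0.05, in 20 comparisons. The method was tested on simulated data with independent noise in each library, without the shared replicate deviations seen in the cultures. False calls there were 2.15% of calls for the cord at 17 weeks and 5.85% for glial genotype beside WT neurons. They were 3.66% for neuronal genotype beside mutant glia and 7.01% for neurons against glia. Arms with 1 library borrow the spread of the others. Members and lists were chosen with earlier results of these data known. By rule the text names up to 8 called members with the largest change per comparison, the 6 highest members per table and up to 3 called genes per list. One gene of a list is not reported here. Other members are named to account for all, and Col15a1 and Col26a1 in glia, the day 14 glial values and the uncalled genes were chosen after their values were seen. Replicate numbers come from the culture titles, and in the cord from accession order. Glial libraries of one day and number deviated together in 15 of 15 pairs (correlations from 0.228, median 0.706), so blocked values are given for glia where calls change. The comparisons of day 14 with day 3 within glia and within neurons were not fitted with that block. SEs and p-values of the day, cell type and interaction comparisons without the block may be too small.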

Additional observations from a re-analysis of the deposited data

Results flagged for a closer look

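The mutant effect on Col5a3 in spinal cord differed between 4 and 17 weeks by 0.82 on the log2(value + 1) scale (limma interaction). It was the only collagen gene of 15 called, where 5.03% of all entries were called. Col5a3 was counted through the late mutants where it is high, so this is a description. The call was lost in 10 of 16 fits without 1 library. It was also lost with values as deposited, with a pseudocount of 0.1 and without the 17-week females.

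In the cultures the change from day 3 to day 14 differed between neuronal and glial libraries for 24 of 33 genes in a limma interaction. Type IV genes differed by log2 4.10 for Col4a5, 3.49 for Col4a6, 1.57 for Col4a1 and 1.01 for Col4a2, all more positive in neuronal libraries. Among fibrillar genes the values were 4.11 for Col1a2, 3.76 for Col11a1, 2.86 for Col1a1, 2.85 for Col5a2, 2.48 for Col5a1, 1.64 for Col2a1, 1.45 for Col3a1 and 1.22 for Col5a3. FACIT genes gave 3.29 for Col12a1, 2.90 for Col22a1, 2.26 for Col16a1, 0.56 for Col9a3 and, in the other direction, -0.26 for Col19a1. The rest were Col8a2 at 3.26, Col8a1 at 2.77, Col18a1 at 2.60, Col6a2 at 1.61, Col6a1 at 1.53, Col6a5 at 1.41 and Col23a1 at 0.69. Col19a1 and Col6a5 were counted through the cell type where they are high, so their values here are a description. Over all entries 53.5% were called in this comparison, and the summed neuron markers went from 4834 to 5960 at day 3 to 590.0 to 1136 at day 14 in the neuronal libraries, whose part in these values was not tested.

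No group holds 4 or more libraries, so no library was checked for standing apart within its group.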

How the results depend on the processing

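Counts of collagen genes called changed as follows. At 17 weeks in spinal cord, 4 became 1 with values as deposited and 1 without the 17-week females. For the mutant effect at 17 against 4 weeks, 1 became 0 with values as deposited, with a pseudocount of 0.1 and without those females, and for WT at 17 against 4 weeks 1 became 0 with no filter and without those females. In glia from day 3 to day 14, 6 became 13 with values as deposited and 3 without day 3 replicate 1. For glial genotype at day 7 alone with replicate block, 0 became 2 beside each neuron partner. In neurons same-numbered libraries of a day correlated above 0.1 in 6 of 7 pairs (lowest 0.073, median 0.557), beside a median of 0.105 between days. Most thus deviated together, but because the lowest fell short of 0.1 the numbers were not taken to pair them. With the replicate block mutant against WT beside mutant glia gave 4 in place of 0, with 5.07% of entries called. The 4 were Col22a1 (log2 -0.88), Col1a1 (-0.85), Col5a1 (-0.83) and Col23a1 (0.56). Neurons against glia with day 14 left out turned Col23a1 to -0.073 and Col9a3 to -0.037. Leaving out 1 library gave 0 to 1 at 12 weeks, 2 to 5 at 17 weeks, 0 to 1 for both other cord comparisons named, 4 to 12 in glia over days, 22 to 26 in neurons over days, 29 to 31 for neurons against glia and 21 to 25 for the day interaction. Every other count stayed at 0 in those fits. Fits that would empty a group without day 3 replicate 1 could not be made, and the cause of the changes in counts was not tested.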
